A study of Mus musculus with 22 samples.

Results

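Gene expression in the whole spinal cord was compared between 3 SOD1-G93A mice and 3 wild-type controls. The members are the 6 libraries whose columns the count table names as G93a, or as WT without a young or old prefix, out of 22 libraries in the study. All 6 mice were C57BL/6 and are labelled as 5-6 months old, and each library holds the total RNA of 1 extruded cord prepared with the Illumina TruSeq kit. The SOD1-G93A mice carried a human SOD1 transgene with the G93A substitution at high copy number, on top of their own mouse Sod1 gene, and were symptomatic. The controls are given as wild type, and the labels name no treatment. The study's methods give 2 females and 1 male per group. The transgene is expressed from the human SOD1 promoter in all cell types rather than in motor neurons alone, so a change in the cord cannot be assigned to mutant protein in a given cell. The other 16 libraries, from 8 young (3-4 months) and 8 old (18-24 months) wild-type males prepared with the Roche KAPA kit, entered only where the change in SOD1-G93A mice was tested against the change with aging.

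Amyotrophic lateral sclerosis (ALS) kills the motor neurons that connect the spinal cord to muscle. In the SOD1-G93A mouse, misfolded SOD1 accumulates, motor axons withdraw from the neuromuscular junction and the cell bodies die, while microglia, the resident macrophages of the cord, and astrocytes take on reactive states. Microglia read debris and lipids through the receptor TREM2, which signals through the ITAM adaptor TYROBP, and respond with phagocytosis, complement, lipid export and lysosomal digestion. The comparison asks which of these programs, and which others, differ in RNA between diseased and healthy cords at one stage.

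Values are given as CPM, the count of a gene per 1000000 counts of its library's scaled total, and changes are log2 fold changes of SOD1-G93A over control with their standard error (SE). An adjusted p-value is from edgeR's quasi-likelihood test over all genes tested, and "rose" and "fell" are used only where it is under 0.05. Library totals ran from 9675610 to 13219797 counts, where 3 counts, the level treated as the floor, equal 0.227 to 0.31 CPM. No 2 libraries of a group agreed within sampling noise. Nothing in the labels says more than that the libraries are separate replicates, and the columns carry no replicate numbers, so libraries are numbered here in column order only. A principal component holding 77.5% of the variance separated the groups. SOD1-G93A library 2 stood apart from libraries 1 and 3 on it, at 22.8 against 62.8 and 54.1, with controls between -50.2 and -42.6. Results that rest on it are given with and without it. Y-linked genes had more than 12 counts in 1 library of each group, and a fit with their level as a covariate is among the alternatives. In whole cord, fewer cells of a type and less RNA per cell cannot be told apart.

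The cord of SOD1-G93A mice differed broadly from that of controls. Of 14386 genes tested, 2641 rose (18.4% of genes tested) and 2236 fell (15.5%), so 33.9% changed in either direction. Beyond a 2-fold change the balance was uneven, with 1223 genes higher (8.50%) and 172 lower (1.20%). Every SOD1-G93A library lay above every control library for 1212 of the 1223 and below for 171 of the 172, where separation occurred upward in 25.7% and downward in 24.7% of all genes tested. Large increases were common and large decreases rare: 538 genes rose more than 4-fold and 99 more than 16-fold, while 7 fell more than 4-fold. The median log2 fold change of all genes tested was 0.0031. Genes that rose beyond 2-fold had a median of 3.30 CPM in controls, and those that fell a median of 15.7 CPM.

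**Figure D1:**
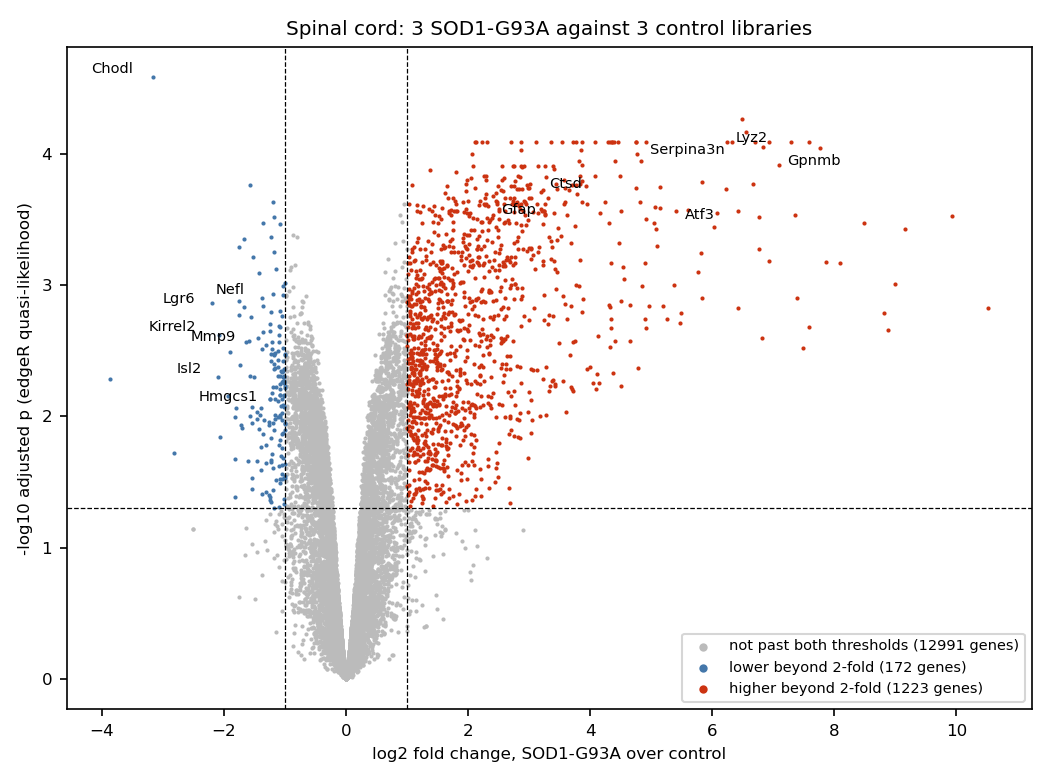
Each point is 1 of 14386 genes, with its log2 fold change (SOD1-G93A over control) on the horizontal axis and minus log10 of its adjusted p-value on the vertical axis. Dashed lines mark a log2 fold change of 1 in either direction and an adjusted p of 0.05, and the 1223 genes higher beyond 2-fold outnumber the 172 lower ones.

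SOD1-G93A library 2 was the one of its group nearest to control for 1092 of the 1223 higher genes (89.3%) and 138 of the 172 lower genes (80.2%). Over the higher genes its median difference from the control mean, on log2(CPM + 1), was 1.02, against 1.67 and 1.56 in libraries 1 and 3. These genes were called with library 2 included, so its direction on them was largely set by the selection, and only its smaller size is described here. Without it the test called 1520 genes higher and 451 lower beyond 2-fold. Without library 1 the counts were 1061 and 97, and without library 3 they were 1006 and 81, so the lower count rests on which SOD1-G93A libraries enter.

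The largest increases, among genes with at least 1 CPM in controls, belonged to phagocytes, astrocytes and stress programs. Gpnmb, a glycoprotein of lipid-laden macrophages, stood at 3.89, 2.86 and 2.38 CPM in the control libraries and 706, 197 and 336 CPM in the SOD1-G93A libraries. Lyz2, the lysozyme of macrophages, stood at 8.83, 10.5 and 6.38 CPM in the control libraries and 987, 369 and 582 CPM in the SOD1-G93A libraries. Serpina3n, a protease inhibitor of reactive astrocytes, stood at 59.8, 47.6 and 57.9 CPM in the control libraries and 2166, 783 and 1775 CPM in the SOD1-G93A libraries. These genes were chosen among those with separate groups, and library 2 was the lowest of the SOD1-G93A libraries each time. Their log2 fold changes were 7.10 (SE 0.53, adjusted p = 0.000122), 6.24 (SE 0.40, adjusted p = 8.14e-05) and 4.84 (SE 0.36, adjusted p = 0.000113). Nupr1, a stress-induced chromatin protein, C3ar1, the receptor of the complement fragment C3a, Lgals3, a galactose-binding lectin of phagocytes, Fcgr2b, the inhibitory Fc receptor, Socs3, a brake on cytokine signaling, Fmod, a collagen-binding proteoglycan, and Cd68, a lysosomal protein of macrophages, completed the 10 largest, with log2 fold changes from 4.45 to 5.07.

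By the share of all counts, the largest gains were in astrocyte and lysosome genes. Gfap, the intermediate filament of astrocytes, went from a mean of 1758 ± 355 CPM (SD, n = 3) in controls to 9258 ± 2755 CPM (SD, n = 3). Apoe, the main lipid carrier of the nervous system, went from 1041 ± 94.6 to 7269 ± 3331 CPM, and Ctsd, a lysosomal aspartic protease, from 348 ± 9.41 to 3182 ± 1359.5 CPM. Ctsb, Clu, Serpina3n, Apod, the metallothionein Mt1, the water channel Aqp4 and the elongation factor Eef1a1 were the other genes with the largest gains. The largest losses included the mitochondrially encoded mt-Co1, mt-Nd1, mt-Nd2, mt-Nd4 and mt-Nd5, the neurofilaments Nefl and Nefm, the synaptic SNARE Snap25 and the lipid desaturase Scd2. Summed over all genes that rose, the gain in mean level came to 105768 CPM, and the mean level of the genes that fell decreased by 123401 CPM.

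Mouse Sod1, which encodes the cytosolic copper-zinc superoxide dismutase, stood at 168, 156 and 156 CPM in the control libraries and 298, 296 and 335 CPM in the SOD1-G93A libraries. Its groups did not overlap and it rose by 0.95 on the log2 scale (SE 0.09, adjusted p = 0.000241). The transgene is human, and whether its reads were counted on mouse Sod1 is not stated in the sources used here, so this value does not check the labels. Sirt1, the deacetylase at the center of the study, stood at 13.3, 22.4 and 19.7 CPM in the control libraries and 20.5, 18.0 and 24.4 CPM in the SOD1-G93A libraries, with overlapping groups and a log2 fold change of 0.18 (SE 0.20, adjusted p = 0.512). Of the transcriptional regulators that SIRT1 is known to deacetylate, Ppargc1a, a coactivator of mitochondrial biogenesis, fell (-0.51, adjusted p = 0.0246), Foxo1 rose (0.83, adjusted p = 0.0346) and Foxo3 did not pass (0.15, adjusted p = 0.584). The calls of Ppargc1a and Foxo1 were each lost when any library other than SOD1-G93A library 2 was left out. Of 26 tested sirtuin, NAD and mitochondrial regulators, 6 rose (23.1%, against 18.4% of all genes tested) and 5 fell (19.2%, against 15.5%). Sirt2, which is abundant in oligodendrocytes, rose by 0.49, Sirt3, the mitochondrial sirtuin, fell by 0.42, and the NAD-consuming enzyme Cd38 rose by 0.93 on the log2 scale.

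Most motor neuron genes fell. Of 27 genes of motor neuron identity tested, 17 fell and 3 rose, with a median log2 fold change of -0.68. Chodl, a surface lectin of fast motor neurons, stood at 35.6, 35.1 and 37.4 CPM in the control libraries and 3.64, 4.53 and 3.94 CPM in the SOD1-G93A libraries, so its SOD1-G93A libraries lay within 1 CPM of each other and library 2 did not stand apart. Isl2, a homeodomain factor of postmitotic motor neurons, stood at 2.66, 2.86 and 3.84 CPM in the control libraries and 1.10, 0.403 and 0.627 CPM in the SOD1-G93A libraries, with no overlap between the groups and the lowest value in library 2. Mmp9, a matrix protease of fast motor neurons that are lost early, stood at 12.9, 15.2 and 11.6 CPM in the control libraries and 3.22, 6.34 and 3.76 CPM in the SOD1-G93A libraries. The log2 fold changes of the 3 genes were -3.16, -2.10 and -1.59 (adjusted p = 2.62e-05, 0.005 and 0.00269).

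Other transcription factors and cholinergic genes belong to the same list. The homeodomain factors Lhx4 and Mnx1 fell by 1.90 and 1.21 on the log2 scale. The choline transporter Slc5a7 fell by 1.08 and the vesicular acetylcholine transporter Slc18a3 by 0.87. Chat, which makes acetylcholine, stood at 14.04, 19.3 and 30.7 CPM in the control libraries and 14.2, 12.4 and 13.9 CPM in the SOD1-G93A libraries. Its groups overlapped and it did not pass the test (-0.67, adjusted p = 0.0708), and neither did Isl1 (-0.50, adjusted p = 0.35). The 3 list members that rose, Spp1 (2.46), Anxa4 (1.38) and Gfra1 (0.44), are not confined to motor neurons, and Spp1, a secreted phosphoprotein, is also made by reactive microglia.

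Most axonal and cytoskeletal genes of neurons fell. Of 21 tested, 18 fell and 1 rose, with a median of -0.66. Nefl, the light neurofilament chain of large axons, stood at 2316, 2535 and 2499 CPM in the control libraries and 733, 1261 and 831 CPM in the SOD1-G93A libraries. All 3 SOD1-G93A values were below every control value and library 2 was again the nearest to control. Nefh, Nefm and Nefl fell by 1.52, 1.42 and 1.38 on the log2 scale, the axonal transport motor Kif5a by 0.83, and the tubulin Tubb3 by 0.60. Nefl and Nefm overlap in their annotated exons, so reads of one could count on the other. The axonal growth protein Gap43 was the member that rose (0.35, adjusted p = 0.0281).

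Synaptic genes fell on both the release and the receiving side. Of 35 presynaptic genes tested, 28 fell and none rose. Syt2, the calcium sensor of fast release that marks motor terminals, stood at 765, 819 and 769 CPM in the control libraries and 296, 513 and 314 CPM in the SOD1-G93A libraries, with separate groups and a log2 fold change of -1.07 (SE 0.19, adjusted p = 0.00452). The vesicle proteins Sv2b and Sv2c fell by 1.18 and 1.11. For the glutamate list 18 of 29 genes fell, among them the metabotropic receptor Grm3 (-1.06) and the vesicular transporter Slc17a6 (-0.82). Among the inhibitory genes 16 of 23 fell, among them the glycine receptor subunit Glra1 (-1.39), the GABA receptor subunit Gabrb2 (-1.46) and the glycine transporter Slc6a5 (-1.04). Gabrg1 and Gabrb1, which glia also express, rose by 0.46 and 0.31.

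The list named for voltage-gated ion channels followed the same direction, with 28 of 31 lower and none higher. It also holds potassium channels that are not voltage-gated, such as Kcnk9 and Kcnj10. Kcna1 and Kcnk9, potassium channels that repolarize or stabilize the membrane, fell by 1.11 and 1.55, and the sodium channels Scn1a and Scn4b by 1.0003 and 1.04 on the log2 scale. Of 20 genes of perineuronal nets and brain matrix 6 fell and 6 rose (30.0% each, against 15.5% and 18.4% of all genes tested). The list was thus evenly split, with a median log2 fold change of -0.12 and values from -1.37 to 1.96. The net proteoglycan Acan stood at 29.1, 34.8 and 35.4 CPM in the control libraries and 10.3, 17.3 and 11.1 CPM in the SOD1-G93A libraries, and the link protein Hapln1 and the hyaluronan synthase Has3 fell by 1.17 and 1.18. Of 20 neuropeptide genes 3 fell, namely Uts2b (-1.26), Calca (-0.73) and Sst (-0.39), and Nmb rose (1.06). Both shares of this list lay below those of all genes tested, which were 15.5% lower and 18.4% higher. The dorsal horn peptides Tac1 (-0.12, adjusted p = 0.582) and Pdyn (-0.00047, adjusted p = 0.999) did not pass. Each of the 4 neuropeptide calls was lost without SOD1-G93A library 1 or library 3.

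**Figure D2:**
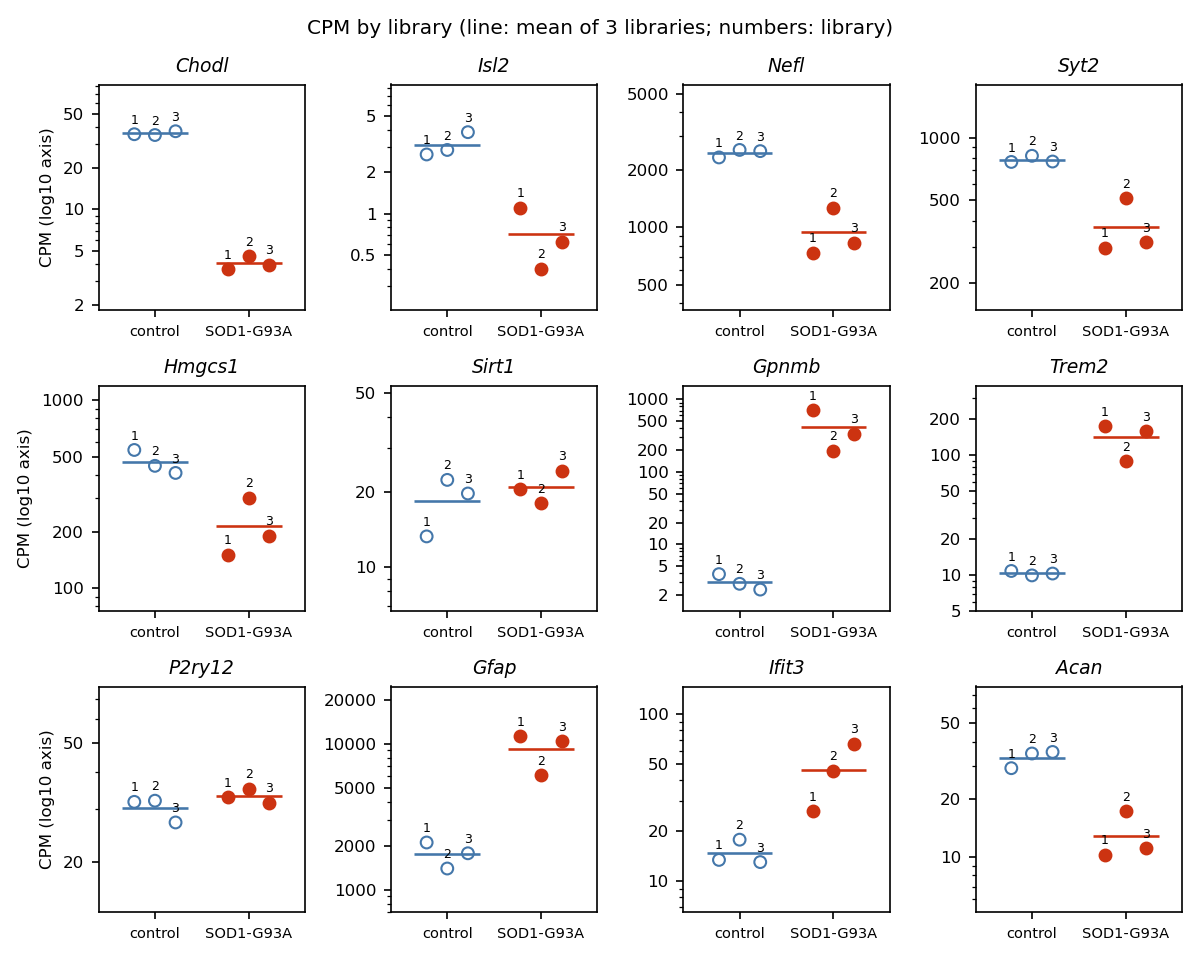
CPM of 12 genes in each library on a log10 axis, with 1 panel per gene, a line at each group's mean, open circles for the 3 control libraries, filled circles for the 3 SOD1-G93A libraries and numbers giving the library. Chodl stays between 3.64 and 4.53 CPM in all SOD1-G93A libraries, whereas for Gpnmb library 2 lies at 197 CPM, below 706 and 336 CPM in libraries 1 and 3.

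Genes of the injury response rose in the same cords. Of 26 tested, 16 rose and 2 fell. Atf3, a stress-activated transcription factor switched on in axotomized neurons, stood at 1.23, 1.01 and 0.0768 CPM in the control libraries and 41.7, 17.4 and 36.2 CPM in the SOD1-G93A libraries, without overlap (5.41, SE 0.53, adjusted p = 0.000271). Sprr1a, a regeneration-associated protein, stood at 0.474, 0.758 and 0.538 CPM in the control libraries and 14.998, 5.84 and 14.9 CPM in the SOD1-G93A libraries, and the small heat shock protein Hspb1 at 26.1, 18.6 and 32.04 CPM in the control libraries and 555, 144 and 398 CPM in the SOD1-G93A libraries. The cytokine Lif rose by 3.27 and its receptor Lifr fell by 0.40 on the log2 scale.

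Part of the unfolded protein and integrated stress response rose. Of 35 genes tested, 14 rose and 1 fell. Genes that rose included targets downstream of ATF4: the pseudokinase Trib3 rose by 2.87 and the transcription factors Ddit3 (CHOP) by 0.98 and Atf5 by 1.12. The endoplasmic reticulum chaperone Hspa5 did not pass (0.15, adjusted p = 0.595). Gdf15, a secreted stress signal, had 1 count in the control group and 112 in the SOD1-G93A group, a ratio of 121 with an exact 95% counting interval from 21.2 to 4806. Of 22 heat shock genes 5 rose and 5 fell (22.7% each, against 18.4% and 15.5% of all genes tested). The small proteins rose, with Hspb1 at 3.84, Hspb6 at 1.86, Hspb8 at 0.93 and Cryab at 0.61 on the log2 scale, while the neuronal Hspa12a and Hspa4l fell by 0.83 and 0.82. The inducible Hspa1a (0.37, adjusted p = 0.444) and Hspa1b (0.18, adjusted p = 0.855) did not pass.

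Cell death and antioxidant genes mostly rose. In the p53 and apoptosis list 19 of 25 genes rose and none fell, including the inflammatory caspases Casp4 (2.99) and Casp12 (2.51), the death receptor Fas (1.87), the initiator Casp8 (1.62) and the BH3-only protein Bbc3 (1.61). Cdkn1a, the p21 cell cycle inhibitor, stood at 22.97, 32.8 and 51.8 CPM in the control libraries and 212, 33.8 and 86.4 CPM in the SOD1-G93A libraries, where SOD1-G93A library 2 lay among the controls and the test was not passed (adjusted p = 0.0522), although it was without that library. Of 26 antioxidant genes 15 rose: Hmox1, which degrades heme, by 3.23, the metallothioneins Mt1 and Mt2 by 2.57 and 2.62, and Prdx6 by 2.23. Sod2, the mitochondrial superoxide dismutase, fell by 0.61. The catalytic subunit of glutathione synthesis, Gclc, a classical NRF2 target, did not pass (-0.20, adjusted p = 0.0929). Of 15 iron genes 7 rose and none fell, with the ferritin light chain Ftl1 at 2.05 and the phagosomal metal transporter Slc11a1 at 3.77, while the transferrin receptor Tfrc (-0.34, adjusted p = 0.0839) did not pass.

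Microglial genes rose unevenly. Of 22 genes that mark resting microglia, 16 rose and none fell. Cx3cr1, the fractalkine receptor, stood at 54.7, 36.9 and 36.5 CPM in the control libraries and 164, 133 and 183 CPM in the SOD1-G93A libraries, and Csf1r, the receptor they need to survive, at 95.6, 79.8 and 84.4 CPM in the control libraries and 368, 230.3 and 299 CPM in the SOD1-G93A libraries. P2ry12, the purinergic receptor of surveying microglia, stood at 31.8, 32.1 and 27.1 CPM in the control libraries and 32.9, 35.1 and 31.6 CPM in the SOD1-G93A libraries, with overlapping groups. It did not pass (0.13, adjusted p = 0.363), nor did Tmem119 (0.53, adjusted p = 0.0599), Sall1 (0.16, adjusted p = 0.296) and Siglech (0.43, adjusted p = 0.0713). Csf1r and P2ry12 thus changed unequally, with log2 fold changes of 1.79 (SE 0.17) and 0.13 (SE 0.10).

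Genes of the disease-associated state had the highest median of all lists with at least 6 tested genes. Of 30 tested, 27 rose and none fell, with a median log2 fold change of 3.38. Trem2 stood at 10.8, 9.93 and 10.3 CPM in the control libraries and 175, 89.7 and 159.8 CPM in the SOD1-G93A libraries, its adaptor Tyrobp at 11.5, 9.01 and 8.61 CPM in the control libraries and 200.1, 80.5 and 144 CPM in the SOD1-G93A libraries, and Lpl, the lipoprotein lipase, at 12.6, 7.66 and 8.99 CPM in the control libraries and 226, 138 and 233 CPM in the SOD1-G93A libraries. Igf1, a growth factor of reactive microglia, rose by 2.78, Csf1, which drives microglial growth, by 1.34, the phosphatidylserine receptor Axl by 1.80, and Spp1 by 2.46 on the log2 scale. The summed level of the list was 7912 to 9042 CPM in controls and 16545 to 32749.7 CPM in SOD1-G93A libraries, with library 2 the lowest of the latter.

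Most Fc receptor, NADPH oxidase and complement genes rose as well. All 22 Fc receptor and ITAM genes tested rose beyond 2-fold. Among them were the activating Fc receptors Fcgr1 (2.69), Fcgr3 (2.94) and Fcgr4 (3.99), the signaling chain Fcer1g (3.45), the kinase Syk (2.36), the phospholipase Plcg2 (1.90), the phosphatases Ptpn6 and Inpp5d (3.01 and 2.15) and the myeloid transcription factor Spi1, or PU.1 (2.71). All 8 genes of the superoxide-producing NADPH oxidase that were tested rose. Its catalytic subunit Cybb stood at 0.759, 0.589 and 0.307 CPM in the control libraries and 66.2, 35.9 and 52.6 CPM in the SOD1-G93A libraries, and the partner Cyba rose by 3.61. Of 23 complement genes 17 rose: the C1q chains C1qa, C1qb and C1qc by 3.59, 3.40 and 3.45, C3 by 2.94, C4b by 2.73, and the receptors Itgam and C5ar1 by 2.13 and 3.03. Cd55, which protects cells from complement, fell by 0.67, while Cfb of the alternative pathway (0.15, adjusted p = 0.78) did not pass.

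Lysosomal and lipid genes rose alongside. Of 40 lysosome genes 32 rose and 1 fell. Among the cathepsins Ctsz rose by 2.96, Ctsh by 2.87, and Ctss by 2.84, and Grn, the progranulin precursor, by 2.99. Ctsk was the gene that fell (-1.0003, adjusted p = 0.00586). The proton pump was divided by subunit. Among 20 subunits 5 rose and 8 fell: Tcirg1, the a3 subunit of phagocytes and osteoclasts, rose by 1.597, the osteoclast subunit Atp6v0d2 had no count in any control and stood at 29.0, 7.45 and 11.5 CPM in the SOD1-G93A libraries, at least 62.5-fold higher when controls are set to the floor of 3 counts per library, and the neuronal Atp6v1g2 fell by 0.57. Of 23 autophagy genes 1 rose and 4 fell (17.4%, against 15.5% of all genes tested). The receptor Sqstm1 did not pass (0.18, adjusted p = 0.173). In the lipid list 17 of 27 rose, among them the cholesterol exporter Abca1, at 48.0, 52.2 and 42.8 CPM in the control libraries and 358, 159 and 269 CPM in the SOD1-G93A libraries, the lipid droplet coat Plin2 (2.32), the scavenger receptor Msr1 (6.02), the apolipoprotein Apoc1 (3.62) and Ch25h, which makes 25-hydroxycholesterol (4.77).

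Synthesis of cholesterol went the other way. Of 22 genes of the pathway tested, 20 fell and none rose, with a median of -0.88 on the log2 scale. Hmgcs1, an early enzyme of the pathway, stood at 542, 447 and 409 CPM in the control libraries and 151, 302 and 190.3 CPM in the SOD1-G93A libraries. Idi1, which acts on the isoprenoid building blocks, stood at 139, 125 and 118 CPM in the control libraries and 35.8, 80.2 and 48.9 CPM in the SOD1-G93A libraries. No SOD1-G93A library reached a control value for either gene. Idi1 fell by 1.22, Sqle, the squalene epoxidase, by 1.001, and the sensor Insig1 by 1.22. The master regulator Srebf2 fell by 0.52. The summed level of the list was 2187 to 2601 CPM in controls and 904 to 1563 CPM in SOD1-G93A libraries. With library 2 left out 20 of the 22 fell, without library 1 19 and without library 3 15.

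Interferon-stimulated and antigen presentation genes rose across their lists. Of 44 interferon genes 42 rose and none fell. Cxcl10, a chemokine induced by interferon, stood at 0.569, 1.18 and 0 CPM in the control libraries and 8.39, 8.86 and 17.9 CPM in the SOD1-G93A libraries, Ifit3, an antiviral RNA-binding protein, at 13.4, 17.7 and 12.99 CPM in the control libraries and 26.2, 45.8 and 66.2 CPM in the SOD1-G93A libraries, and Bst2, which tethers viruses, at 2.18, 2.10 and 2.07 CPM in the control libraries and 18.2, 10.2 and 27.8 CPM in the SOD1-G93A libraries. The groups did not overlap. Unlike the microglial lists, the summed interferon list was highest in SOD1-G93A library 3 (1216 CPM, against 967 and 845 CPM in libraries 1 and 2 and 359 to 399 CPM in controls). Irf8, the macrophage regulator that the study names as a SIRT1 substrate, rose by 3.38 (SE 0.26, adjusted p = 0.000124), and Irf7, the amplifier of the response, by 1.95. Of 22 class I genes 19 rose, including B2m (2.11), the transporter Tap1 (1.93) and the immunoproteasome subunits Psmb8 and Psmb9 (2.55 and 2.11). All 11 class II genes tested rose, among them the invariant chain Cd74, at 2.37, 2.53 and 0.999 CPM in the control libraries and 38.1, 29.0 and 46.4 CPM in the SOD1-G93A libraries. H2-D1, H2-K1 and the H2-Q genes are near-identical in places, so reads could be split among them.

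Promoters of 5 genes that rose are shown because they hold matches to elements known for their families. They are given as RefSeq has them for GRCm38.p6, 250 bases upstream of the start site and 5' to 3' on the gene's own strand. Capitals mark matches, on either strand, to 6 short motifs: GAAANNGAAA (the core of the interferon-stimulated response element, ISRE), GAGGAAGT (PU.1), CACGTGAC (the lysosomal CLEAR element bound by TFEB), TGATGNAAT (the C/EBP-ATF element), TGACTCA (AP-1) and TTCNNGGAA (a STAT element), where N is any base. Isg15 and Ifit1 show the interferon element, Cybb the same element in a microglial gene, Ctsd the lysosomal element and Nupr1 the C/EBP-ATF element.

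Ifit1: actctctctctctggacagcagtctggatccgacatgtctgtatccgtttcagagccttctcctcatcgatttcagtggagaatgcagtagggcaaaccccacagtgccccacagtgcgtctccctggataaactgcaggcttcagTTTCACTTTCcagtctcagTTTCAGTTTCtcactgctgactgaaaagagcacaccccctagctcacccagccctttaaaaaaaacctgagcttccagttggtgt
Isg15: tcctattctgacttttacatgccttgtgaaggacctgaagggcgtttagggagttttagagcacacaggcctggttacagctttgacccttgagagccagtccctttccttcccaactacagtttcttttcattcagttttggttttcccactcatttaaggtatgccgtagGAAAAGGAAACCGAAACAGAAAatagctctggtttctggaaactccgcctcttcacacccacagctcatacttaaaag
Cybb: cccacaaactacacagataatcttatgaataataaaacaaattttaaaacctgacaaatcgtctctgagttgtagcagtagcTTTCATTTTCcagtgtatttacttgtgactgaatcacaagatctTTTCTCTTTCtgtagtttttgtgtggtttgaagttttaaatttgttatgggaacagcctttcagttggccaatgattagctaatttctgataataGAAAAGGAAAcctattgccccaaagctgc
Ctsd: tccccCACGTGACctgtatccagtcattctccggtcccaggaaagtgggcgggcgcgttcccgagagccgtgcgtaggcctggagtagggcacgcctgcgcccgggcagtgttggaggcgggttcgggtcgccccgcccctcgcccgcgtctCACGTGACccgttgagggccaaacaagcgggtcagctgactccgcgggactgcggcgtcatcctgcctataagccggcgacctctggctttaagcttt
Nupr1: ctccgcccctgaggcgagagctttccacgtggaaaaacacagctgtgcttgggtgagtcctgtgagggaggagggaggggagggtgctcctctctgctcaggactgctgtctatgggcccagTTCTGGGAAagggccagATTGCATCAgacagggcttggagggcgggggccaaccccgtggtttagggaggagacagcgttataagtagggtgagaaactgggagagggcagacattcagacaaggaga

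The window of Ifit1 is chr19:34640639-34640888 on the plus strand, and the other 4 lie on the minus strand, at chr4:156200819-156201068 for Isg15, chrX:9469325-9469574 for Cybb, chr7:142387828-142388077 for Ctsd and chr7:126625471-126625720 for Nupr1. Isg15 holds 3 overlapping copies of the ISRE core between 78 and 57 bases before its start, Ifit1 holds 2 and Cybb 3, Ctsd holds 2 copies of the CLEAR core, and Nupr1 holds the C/EBP-ATF core beside a STAT element. RefSeq promoters were found for 11201 of the 14386 genes tested, 14393 promoters in all, and 2.52% of these held the ISRE core. Among the 40 promoters of the interferon list, 18 held it (45.0%). Over genes higher beyond 2-fold the share was 4.91%, and over those lower beyond 2-fold 1.21%. The CLEAR core stood in 19.4% of lysosome promoters, 3.08% of all promoters and 1.55% of those of higher genes. It also stood in 3 of 19 promoters (15.8%) of the cholesterol synthesis list, most of whose genes fell. The PU.1 core stood in 4.91% and the AP-1 element in 7.16% of promoters of higher genes, against 2.28% and 3.24% of all. For the STAT element the shares were 4.57% and 3.69%, and for the C/EBP-ATF element 0.517% and 0.445%. Neighboring copies of a motif can overlap, as in Isg15, and the matches describe letters only and carry no test.

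Cytokine and pattern-receptor genes rose, several from near the floor. In the interleukin-1, TNF and NF-kB list 26 of 30 rose, with the receptors Tnfrsf1a (2.08) and Osmr (3.26), the cytokine Tgfb1 (2.23) and the inflammasome adaptor Pycard (2.36). The cytokines Tnf (3 counts in controls, 30 in SOD1-G93A libraries, a ratio of 10.8 with an exact 95% counting interval from 3.35 to 55.1), Il1b (6 and 32) and Il6 (0 and 1) were too low to be tested. Il18 did not pass (0.024, adjusted p = 0.9). Of 22 Toll-like receptor genes 20 rose, with Tlr2 at 3.03 and Tlr7 at 3.28. The chemokine Ccl3 stood at 0.19, 0.253 and 0 CPM in the control libraries and 15.5, 12.2 and 19.96 CPM in the SOD1-G93A libraries, and Ccl4 and Ccl6 rose by 5.15 and 4.36. Cx3cl1, the neuronal ligand of Cx3cr1, fell by 0.32.

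The defining markers of T cells, NK cells, B cells and neutrophils had few counts. The T cell CD3 subunit genes Cd3d and Cd3g had no count in controls and 6 and 3 in all SOD1-G93A libraries together. Cd3e had 14 counts in controls and 12 in SOD1-G93A libraries, and Cd8a had 3 and 10. Of 20 T cell genes 4 could be tested, of which Pdcd1 rose (5.61) and Thy1, which neurons express, fell (-0.48). The NK and cytotoxic genes Ncr1, Gzmb and Prf1 had 3, 2 and 2 counts over the SOD1-G93A group, the B cell gene Ms4a1 0, and the neutrophil genes S100a8, Mpo and Ly6g 11, 3 and 0. Of 12 NK and cytotoxic genes 1 could be tested, and it rose (3.95). The summed NK list, near the floor in controls, was 0 to 0.854 CPM there and 2.52 to 6.36 CPM in SOD1-G93A libraries. Cd22, a B cell lectin that microglia also express, and Csf3r rose by 6.66 and 2.75. Of 7 tested border macrophage and monocyte genes 5 rose and none fell. Mrc1 rose (1.42) and Ms4a7 had 2 counts in controls and 248 in SOD1-G93A libraries (ratio 134, counting interval 36.6 to 1109), whereas Cd163 (0.77, adjusted p = 0.114) did not pass and Lyve1 and Ccr2 had 17 and 30 counts over the SOD1-G93A group against 7 and 4 in controls. The hemoglobin genes did not pass (Hbb-bs 0.0064, adjusted p = 0.982), and the summed red cell list was 382 to 492 CPM in controls and 388 to 477 CPM in SOD1-G93A libraries.

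Astrocyte genes of the reactive state rose. Of 36 tested, 33 rose and none fell, with a median of 2.47. Vim, an intermediate filament that also serves other cells, stood at 98.6, 55.3 and 76.7 CPM in the control libraries and 1330.2, 582 and 1264 CPM in the SOD1-G93A libraries, and Lcn2, an iron-siderophore binding protein, at 0.19, 1.01 and 0.307 CPM in the control libraries and 23.4, 2.52 and 9.22 CPM in the SOD1-G93A libraries. Timp1, an inhibitor of matrix proteases, stood at 0.19, 0.421 and 0.692 CPM in the control libraries and 43.2, 12.4 and 37.5 CPM in the SOD1-G93A libraries. Cd44, the hyaluronan receptor, rose by 2.73, and Stat3, the transcription factor that drives the state, by 0.93 on the log2 scale. Of 28 genes of normal astrocyte function 13 rose and 5 fell (46.4% and 17.9%, against 18.4% and 15.5% of all genes tested). Aqp4 rose by 1.40, Agt by 1.37 and the transcription factor Sox9 by 1.301, while the glutamate transporter Slc1a2 (0.071, adjusted p = 0.679), Glul, which makes glutamine (-0.011, adjusted p = 0.966), and the potassium channel Kcnj10 (-0.10, adjusted p = 0.489) did not pass. The GABA transporter Slc6a11 and the serine transporter Slc7a10 fell by 0.97 and 1.14.

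Central myelin genes were called in both directions, with 7 of 32 higher and 7 lower (21.9% each, against 18.4% and 15.5% of all genes tested). In the fit of all 22 libraries 12 were lower. The structural genes Mbp (-0.04, adjusted p = 0.838) and Mog (-0.20, adjusted p = 0.232) did not pass. Ugt8a, which makes the galactolipids of myelin, fell by 0.82 and the serpin Serpinb1a by 1.36. The tight junction protein Cldn11 rose by 0.71, and the protease Klk6 stood at 127, 82.7 and 113 CPM in the control libraries and 339.8, 278 and 420.1 CPM in the SOD1-G93A libraries. Of 21 precursor genes 9 rose, with Gpr17 at 0.75 and Cspg4 at 0.78, while Pdgfra (0.27, adjusted p = 0.179) and Olig2 (0.0022, adjusted p = 0.992) did not pass.

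The Schwann cell genes Prx and Pmp2 were high in 1 library. They reached 20.9 and 2.80 CPM in SOD1-G93A library 1 and at most 1.52 and 0.201 CPM in any other. Pmp2 was low enough to miss the count filter, and Prx did not pass (2.89, adjusted p = 0.073). Egr2, which drives peripheral myelination and is also an immediate early gene, differed from them. It stood at 0.19, 0.168 and 0.231 CPM in the control libraries and 9.49, 3.42 and 7.61 CPM in the SOD1-G93A libraries and rose by 5.05 (adjusted p = 0.000339). The summed list, which also holds Mbp of central myelin, was 13589 to 16925 CPM in controls and 15571, 13822 and 16853 CPM in the SOD1-G93A libraries. Without library 1, 4 of the list's tested genes rose, against 6 of 15 with it. Ogn, a proteoglycan of fibroblasts, was also high in library 1 alone, at 20.1 CPM against 2.42 and 1.97 CPM in libraries 2 and 3. Fkbp5 and Sgk1, which glucocorticoids induce, varied among libraries of both groups. Fkbp5 stood at 24.3, 32.7 and 55.2 CPM in the control libraries and 176, 18.4 and 42.9 CPM in the SOD1-G93A libraries, and Sgk1 at 50.01, 259.8 and 91.1 CPM in the control libraries and 389, 107 and 190.1 CPM in the SOD1-G93A libraries. Their groups overlapped. SOD1-G93A library 1 was also the 1 of its group with high Y-linked counts. The part of these differences between libraries in the results was not tested.

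**Figure D3:**
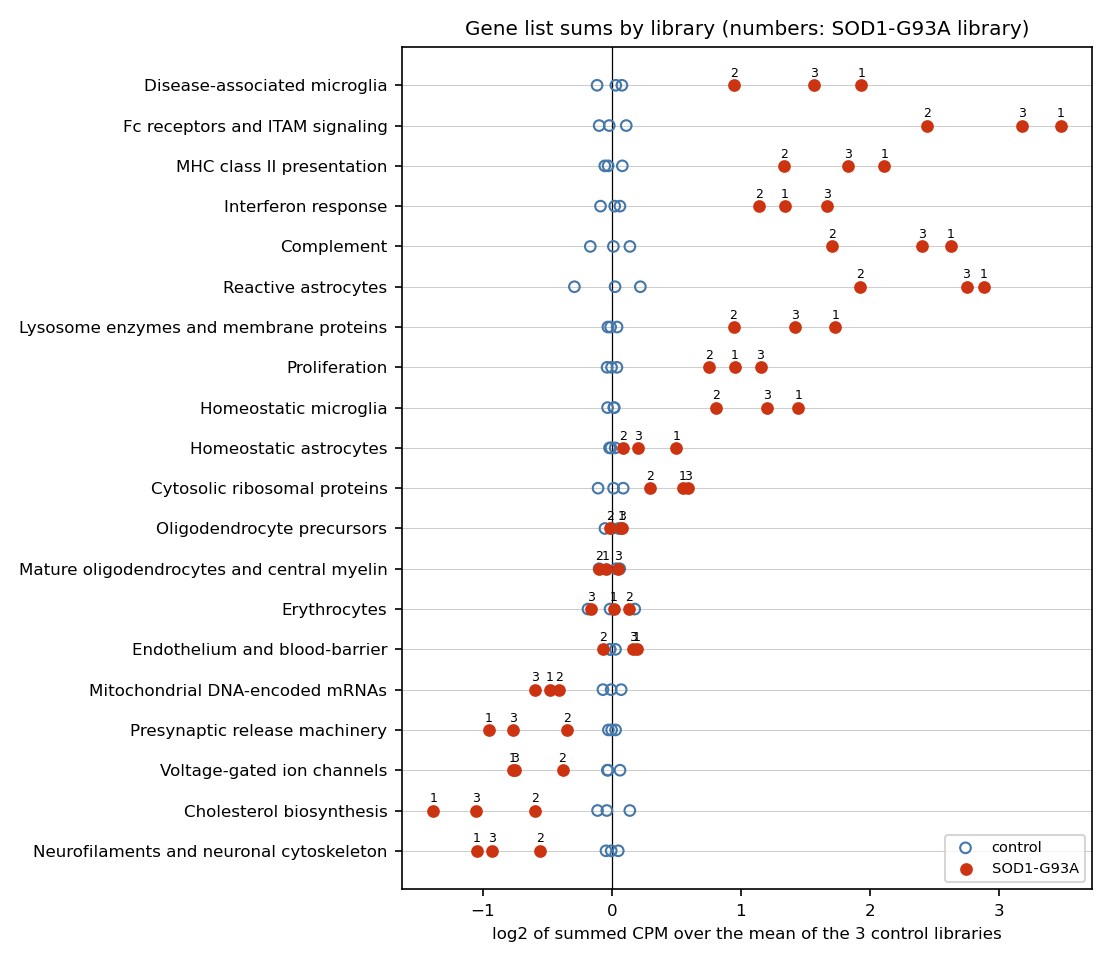
Summed CPM of 20 gene lists in each library, as the log2 ratio to the mean of the 3 control libraries, with open circles for control and filled circles for SOD1-G93A libraries, numbered. SOD1-G93A library 2 lies nearest to the controls for most lists, and the sums of the erythrocyte and central myelin lists overlap between the groups.

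Part of the energy metabolism genes fell. Of 13 mRNAs encoded by mitochondrial DNA 9 fell and none rose. The complex I subunit mt-Nd1 stood at 9228, 8015 and 7687 CPM in the control libraries and 4813, 5610.2 and 4636 CPM in the SOD1-G93A libraries, a 1.66-fold lower fitted level without overlap. The summed mRNAs came to 75074 to 82807 CPM in controls and 52208 to 59249.6 CPM in SOD1-G93A libraries. The calls of mt-Co1 and mt-Nd4 were lost without any 1 of the control libraries or without SOD1-G93A library 3, and in one fit of all 22 libraries 2 of these mRNAs fell. Among nuclear genes, 10 of 37 complex I subunits fell (27.0%, against 15.5% of all genes tested) and 1 rose (2.70%, against 18.4%). Of 40 subunits of complexes II to V 11 fell (27.5%, against 15.5%) and none rose. Ndufs1 fell by 0.51, Cox5a by 0.40 and Atp5b by 0.36 on the log2 scale. The fit of all 22 libraries called 19 and 18 subunits lower. In the sugar metabolism list 12 of 38 fell (31.6%, against 15.5% of all genes tested), among them the neuronal enolase Eno2 (-0.68). In the same list 6 rose (15.8%, against 18.4%), led by the hexokinases Hk3 (3.57) and Hk2 (2.27) and the lactate dehydrogenase Ldha (0.91). Gapdh stood at 245, 259 and 267 CPM in the control libraries and 234, 238 and 242 CPM in the SOD1-G93A libraries (-0.11, adjusted p = 0.323).

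Ribosomal protein genes rose by small, even amounts. Of 54 tested, 45 rose and none fell, with a median of 0.50 and a range from 0.092 to 0.93 on the log2 scale. Rplp0 rose most (0.93, adjusted p = 0.00174). Many of these genes have processed copies elsewhere in the genome, so their counts are uncertain. Cell division genes rose as well, with 27 of 38 higher and 1 lower. Mki67, present in dividing cells, stood at 1.42, 0.926 and 1.08 CPM in the control libraries and 11.1, 6.75 and 14.2 CPM in the SOD1-G93A libraries, and Top2a, which untangles replicated DNA, at 0.759, 1.68 and 0.615 CPM in the control libraries and 10.1, 9.06 and 14.9 CPM in the SOD1-G93A libraries. Ccnd1, a cyclin of entry into the cycle, rose by 1.66, and Ccne1 fell by 0.58.

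Matrix and growth factor genes moved in both directions. Among collagens, proteases and inhibitors 19 of 36 rose and 6 fell (52.8% and 16.7%, against 18.4% and 15.5% of all genes tested). Mmp12, the macrophage elastase, stood at 0.0949, 0.505 and 0 CPM in the control libraries and 25.9, 17.6 and 27.7 CPM in the SOD1-G93A libraries, and the plasminogen activator Plau at 1.80, 2.27 and 1.54 CPM in the control libraries and 45.0, 25.8 and 42.3 CPM in the SOD1-G93A libraries. Fn1, fibronectin, rose by 1.501 and the matrix protein Tnc by 1.96. Of the integrins 11 of 23 rose, including Itga5 (3.83) and Itgb5 (1.74). In the IGF and TGF-beta list the binding proteins Igfbp2 and Igfbp5 rose by 2.47 and 2.29 and the receptor Tgfbr2 by 1.61. Fgf2, a growth factor of reactive astrocytes, rose by 2.72 and Cntf by 1.77, while Nrg1, the axonal neuregulin, fell by 1.02, Vegfa by 0.52 and Fgf1 by 0.62. Bdnf (-0.38, adjusted p = 0.175) did not pass, and Gdnf had 2 counts in controls and 21 in SOD1-G93A libraries (ratio 11.3, counting interval 2.76 to 99.5).

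Vascular, ependymal and regional identity genes were also counted. Of 26 endothelial genes 4 rose (15.4%, against 18.4% of all genes tested) and 2 fell (7.69%, against 15.5%). The adhesion receptors Icam1 and Vcam1 rose by 2.49 and 0.97, the VEGF receptor Kdr fell by 0.93, and the junction protein Cldn5 (-0.18, adjusted p = 0.507) did not pass. Of 14 pericyte and smooth muscle genes 7 rose and 1 fell. Tagln and Mylk, contractile genes of smooth muscle, rose by 2.197 and 2.41, while Acta2 (-0.41, adjusted p = 0.152) did not pass. Of 24 ependymal and cilia genes 7 rose, with the ciliary regulator Foxj1 at 0.37. The Hox genes, which mark the levels of the cord, were expressed in all 6 libraries (1019.8 to 1031 CPM summed in controls and 712 to 925 in SOD1-G93A libraries). Of 30 tested, 5 fell (16.7%, against 15.5% of all genes tested). In the fit of all 22 libraries 11 Hox genes and 9 endothelial genes fell. Among the mouse orthologs of 39 genes linked to human ALS 13 fell and 3 rose. Apart from the cytoskeletal genes given above, Tuba4a fell by 0.88 and Unc13a by 0.66, Pfn1 rose by 0.74, and Tardbp (-0.0085, adjusted p = 0.947) and C9orf72 (-0.22, adjusted p = 0.118) did not pass.

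**Figure D4:**
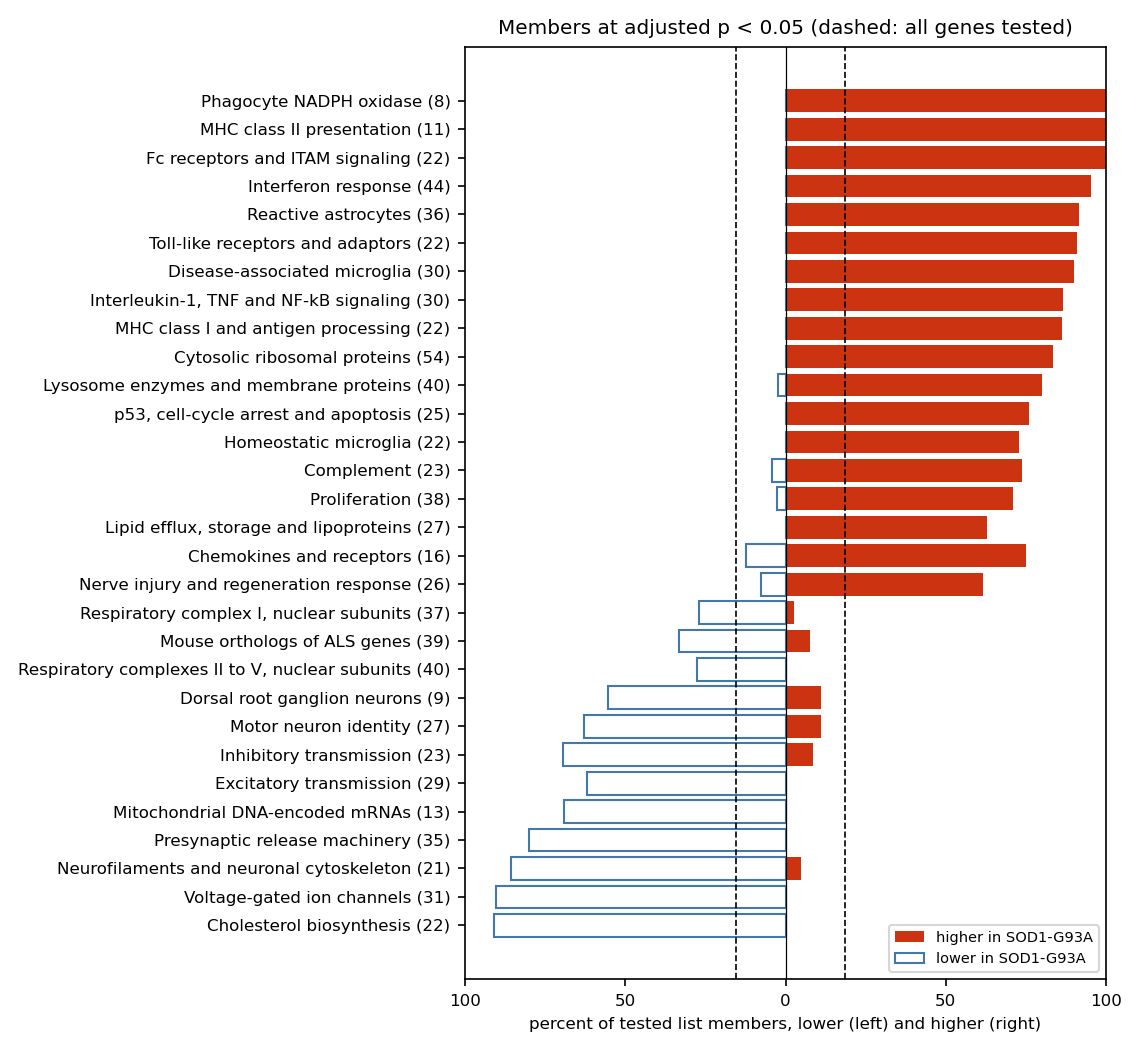
Percent of the tested members of 30 gene lists that rose (right, filled) or fell (left, open) in SOD1-G93A cords at an adjusted p under 0.05, with the number tested beside each name, for the 12 lists with the most negative and the 18 with the most positive difference of the 2 shares among lists with at least 8 tested members. Dashed lines mark the shares over all genes tested, 18.4% higher and 15.5% lower. Immune lists lie far to the right and neuronal and cholesterol lists far to the left of these lines.

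Where a list is said to hold no gene that rose or none that fell, that is by edgeR's test at an adjusted p under 0.05. At an unadjusted p under 0.05 the count in that direction was also 0, except for 1 gene each in the iron, lipid and complexes II to V lists, and by DESeq2 it was 0 in all of them.

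Of the 10 most negative log2 fold changes among genes with separate groups and a mean of at least 1 CPM in SOD1-G93A libraries, 8 were of genes outside the motor neuron list. Lgr6, a receptor for R-spondins, stood at 15.3, 11.1 and 9.68 CPM in the control libraries and 1.78, 3.93 and 2.24 CPM in the SOD1-G93A libraries, and Kirrel2, an immunoglobulin superfamily adhesion protein, at 5.98, 8.76 and 12.4 CPM in the control libraries and 2.71, 2.12 and 1.61 CPM in the SOD1-G93A libraries. Rspo2, a secreted R-spondin that boosts Wnt signaling, stood at 8.83, 10.3 and 12.1 CPM in the control libraries and 3.30, 3.02 and 2.95 CPM in the SOD1-G93A libraries. Vipr2, a receptor for the peptides VIP and PACAP, fell by 1.76, Gdf10, a TGF-beta family ligand, by 1.75, Gli1, a target of hedgehog signaling, by 1.70, and Smyd1 and Fbxo40, both better known from muscle, by 1.82 and 1.74 on the log2 scale. The muscle genes Acta1 (31 counts in controls and 17 in SOD1-G93A libraries), Ckm (1 and 3) and Myh4 (0 and 0) were low in both groups.

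The change in SOD1-G93A mice was set against that of normal aging by testing their difference, (SOD1-G93A minus control) minus (old minus young), in one model of all 22 libraries. Library kit and experiment coincide, so each difference lies within 1 kit. Kit still differs between the experiments, and the aging mice were all male. The part of either in the results below cannot be told apart from that of the disease. Of 14502 genes, 1682 changed in the more positive direction in SOD1-G93A cords (11.6%) and 2063 the more negative (14.2%). Without SOD1-G93A library 1 the sum of both directions went from 3745 to 2381 genes. In the aging comparison alone 1839 genes were higher (13.5%) and 1761 lower (12.9%) in old mice at an adjusted p under 0.05. Complex I subunits had a median log2 fold change of -0.22 in SOD1-G93A cords and 0.10 with aging, and 21 of 37 differed, all toward the more negative in SOD1-G93A. Among the other energy lists 19 of 40 subunits of complexes II to V, 1 of 13 mitochondrially encoded mRNAs and 18 of 38 sugar metabolism genes were more negative, and 5 of the last list were more positive. Cholesterol synthesis genes had medians of -0.88 and -0.20, and 18 of 22 were more negative. For motor neuron genes the medians were -0.68 and -0.034, with 15 of 27 more negative and 1 more positive. Disease-associated microglial genes rose in SOD1-G93A mice for 27 and with aging for 26 members, with medians of 3.38 and 1.29 and 18 of 30 more positive in SOD1-G93A. Ribosomal protein genes had medians of 0.50 and 0.29, and 4 of 54 were more positive in SOD1-G93A. Proliferation genes were more positive in SOD1-G93A for 17 of 37.

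Among single genes, Chodl changed by -3.16 in SOD1-G93A cords and by -0.23 with aging on the log2 scale, a difference of -2.96 (adjusted p = 6.39e-13). Aqp4 rose by 1.40 in SOD1-G93A mice and stood at -0.084 with aging (difference 1.46, adjusted p = 1.5e-07). Hmgcs1 had -1.12 and -0.63 (difference -0.52, adjusted p = 0.0514). Cst7 and Itgax, genes of the disease-associated state, had 7.77 and 6.92 in SOD1-G93A mice and 6.61 and 5.64 with aging, and their differences did not pass (adjusted p = 0.65 and 0.322).

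**Figure D5:**
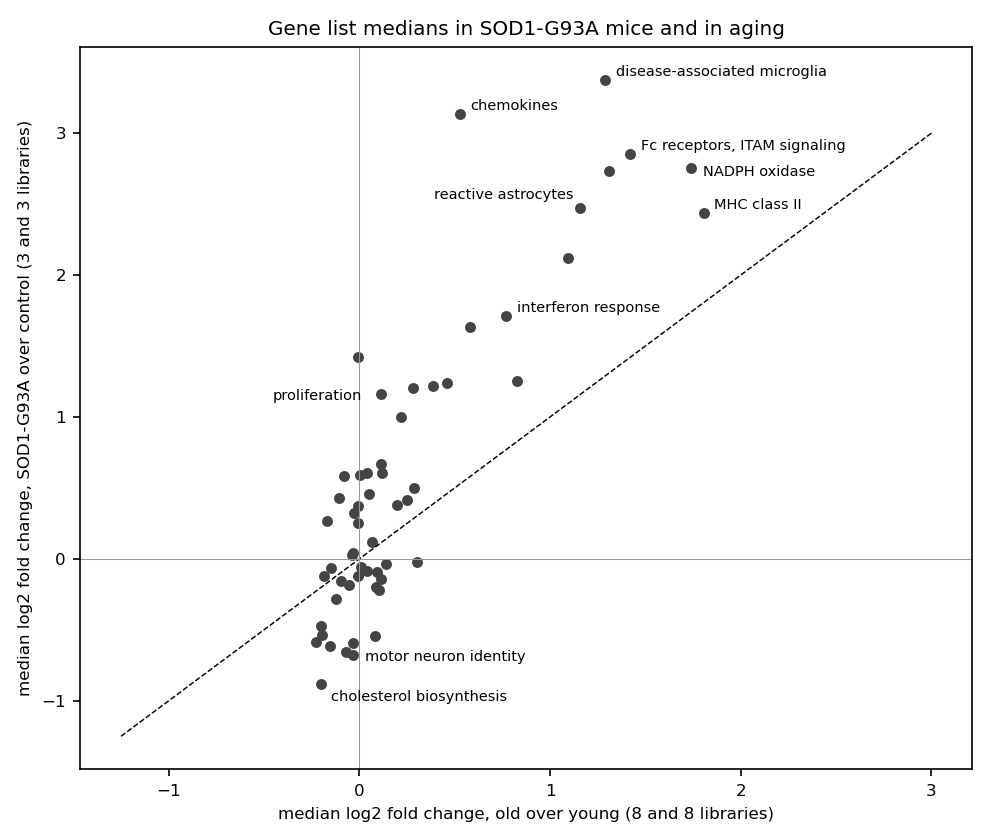
Median log2 fold change of each gene list with at least 6 tested members in SOD1-G93A against control mice (vertical axis) and in old against young mice (horizontal axis), with the diagonal of equal change dashed. Immune lists lie above the diagonal on the positive side, and the cholesterol and motor neuron lists lie below it on the negative side.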

How the data were processed

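RNA sequencing of whole spinal cord was analyzed from the count table the authors deposited, which holds expected counts per gene made with STAR and RSEM against mm10 with Ensembl 88 annotation and given as whole numbers, 1 column per library. SAMtools 1.3 is among the tools in the submitters' processing notes. The authors also deposited a table of log2 FPKM values, which was read but gives no value in the text. Neither the strand setting nor any counting of unique molecules is given in the sources used here, so 47 of the 280 tested genes named in the text, whose exons overlap another gene, are uncertain, and intervals cover counting error only.

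Genes were kept with filterByExpr (minimum count 10, minimum total 15), scaled by TMM and tested with the quasi-likelihood test of edgeR 4.0.16 in R 4.3.3, with Benjamini-Hochberg adjustment over all genes. The 6 libraries were fitted alone, because the other 16 used another kit, and p-values measure the spread between 3 libraries per group. DESeq2 1.42.0, other scalings and filters, a fit of all 22 libraries, a Y-linked covariate and the omission of each library were the alternatives. On simulated counts for 14386 genes, 93.5% of 200 genes changed by 1.5 on the log2 scale in the SOD1-G93A comparison were recovered, and 1.58% of calls fell on unchanged genes. The simulated libraries were independent, the changed genes all lay above 1 CPM, and equal numbers went up and down. No simulated library was shifted as SOD1-G93A library 2 was, and far fewer genes changed than were called in the data. The rates therefore hold for that setting only.

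The members and gene lists were chosen with earlier results of these data known. Genes named in the text are those the study names, the 10 largest and 10 smallest changes with separate groups and at least 1 CPM in the lower group, the 10 largest gains and losses in CPM, the anchors, lowest adjusted p-values and extremes of each list, and the 5 most positive and 5 most negative differences from aging. Fkbp5, Gclc, Il6, Ogn and Sgk1 were added after their values were seen. List names without a row of their own in the table were not analysed here, and some named genes are not reported here.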

Additional observations from a re-analysis of the deposited data

Results flagged for a closer look

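The results below stand out because the change between SOD1-G93A and control mice differed from the change between old and young mice by the interaction test in edgeR over 22 libraries. Over all genes, 1682 had a more positive and 2063 a more negative change in SOD1-G93A mice.

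The 5 genes with the most positive difference, among genes past both thresholds in SOD1-G93A mice with at least 1 CPM in the lower group, were as follows. Mki67 had a difference of 3.40 on the log2 scale (adjusted p = 0.000986). Its change in SOD1-G93A mice was 3.23, and it was too low to be tested in the aging comparison alone. Apoc1, an apolipoprotein of microglia and macrophages, had a difference of 3.36 (3.62 and 0.23, adjusted p = 5.47e-05). The stress protein gene Nupr1 had a difference of 3.25 (5.07 and 1.79, adjusted p = 9.8e-05). Fmod, a collagen-binding proteoglycan, had a difference of 3.10 (4.50 and 1.36, adjusted p = 1.73e-07), and 1500015O10Rik one of 3.01 (2.61 and -0.43, adjusted p = 9.71e-05).

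The 5 genes with the most negative difference were those of Chodl, Lgr6, Kirrel2, Fbxo40 and Slco4a1. Chodl had a difference of -2.96 (-3.16 and -0.23, adjusted p = 6.39e-13), Lgr6 one of -2.16 (-2.19 and -0.059, adjusted p = 7.53e-06) and Kirrel2 one of -1.92 (-2.08 and -0.18, adjusted p = 0.000266). Fbxo40, a muscle ubiquitin ligase component, had a difference of -1.91 (-1.74 and 0.15, adjusted p = 5.19e-05), and Slco4a1, an organic anion transporter, one of -1.79, from -1.64 in SOD1-G93A mice and 0.13 with aging (adjusted p = 2.64e-05). Kit and sex differ between the experiments, since the aging mice were all male, and the part of either in these differences cannot be told apart from that of the disease.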

How the results depend on the processing

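No paired analysis was possible because the columns carry no replicate numbers. Without the fold threshold 2641 genes were higher and 2236 lower, and against a fold of 2 as the null hypothesis (glmTreat) 558 and 10. Leaving out 1 library gave 1006 to 1520 higher, 81 to 451 lower and 2381 (without SOD1-G93A library 1) to 4938 (without SOD1-G93A library 2) genes that differed from aging. The count that differed from aging was otherwise run only with DESeq2, other scaling factors and a filter of 10 counts in every library. It stayed within 1.5 times in these. The higher and lower counts stayed within 1.5 times by DESeq2 and with other scaling factors, filters and gene types. They also did in the fit of all 22 libraries and with the Y-linked covariate. The genes that lost their call in such alternatives were Foxj1, Mrc1 and Nmb by DESeq2, Mrc1 with the covariate, Foxj1, Gabrb1, Mrc1 and Nmb without a filter, and mt-Co1, mt-Nd2, mt-Nd4 and mt-Nd5 in the fit of all libraries, where Chat passed, as it did by DESeq2 and with the covariate. Of 239 named genes past the threshold, 27, 35 and 21 lost their call without control libraries 1, 2 and 3, and 16 and 44 without SOD1-G93A libraries 1 and 3, while no call was lost without SOD1-G93A library 2. These 45 genes, whose calls depend on at least 1 library, were Atp5b, Atp6v1g2, Calca, Ccne1, Cd55, Cox5a, Cryab, Cx3cl1, Foxj1, Foxo1, Gabrb1, Gabrb2, Gabrg1, Gap43, Gfra1, Gli1, Glra1, Gpr17, Kcnk9, Kdr, Lifr, Mnx1, Mrc1, mt-Co1, mt-Nd4, Ndufs1, Nmb, Per1, Ppargc1a, Scd2, Scn1a, Scn4b, Serpinb1a, Sirt2, Slc17a6, Slc6a11, Slc6a5, Smyd1, Snap25, Sod2, Srebf2, Sst, Thy1, Ugt8a and Uts2b. No called gene named in the text changed direction in the alternatives run. Counts of 3 per library limit what can be seen in genes near the floor, and of the 280 tested genes 248 had 10 counts in every library.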

Other observations

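Of 18 immediate early genes 6 rose and 1 fell (33.3% and 5.56%, against 18.4% and 15.5% of all genes tested). The largest log2 fold change of the list, 5.41, was that of Atf3, which the injury list also holds. Fos, Junb and Jun, subunits of the AP-1 factor, rose by 1.58, 1.65 and 0.61 on the log2 scale, and Arc, an immediate early gene of active synapses, fell by 0.99. The neuronal Npas4 stood at 4.37, 5.56 and 4.61 CPM in the control libraries and 3.39, 2.92 and 3.85 CPM in the SOD1-G93A libraries and did not pass (-0.51, adjusted p = 0.109).

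Of 19 clock genes 4 rose (21.1%, against 18.4% of all genes tested) and 2 fell. Per1 rose by 0.61 and Bhlhe41 by 0.65, while the core activator Arntl did not pass (-0.39, adjusted p = 0.104). Of 9 sensory neuron genes 5 fell, and the list shares Isl2 and Calca, both of which fell, with the motor neuron list. Avil, an actin-binding protein also called advillin, was the member that rose (2.59, adjusted p = 0.00258), and the sensory channel genes Scn10a and Trpv1 had 4 and 4 counts over the controls and 0 and 10 over the SOD1-G93A libraries. Of 18 meningeal and fibroblast genes 3 rose (16.7%, against 18.4% of all genes tested) and 1 fell. Fmod, the member that rose most, stood at 7.88, 7.49 and 8.30 CPM in the control libraries and 228, 88.1 and 219 CPM in the SOD1-G93A libraries.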
